A study of Rattus norvegicus with 24 samples.

Results

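Aminoacyl-tRNA synthetases and 2 proteins that hold several of them together were followed in the myocardium of rats with mitral regurgitation (MR), a leak of the valve between the left atrium and the left ventricle. The set holds 38 named genes: 20 cytosolic enzymes, 16 mitochondrial enzymes whose symbols end in 2, and the scaffold genes Aimp1 and Aimp2. Rows were taken by gene symbol, and 36 of the 38 were found among the 10797 genes listed in any of the 4 deposited tables: all 20 cytosolic enzymes, 14 mitochondrial enzymes and both scaffold genes. Iars2 and Mars2 were not analysed here. All 36 were listed in every table and passed the filter on low values in every comparison.

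There were 24 RNA-seq libraries, all from Sprague-Dawley rats. The groups were MR at 2 weeks after surgery (n = 4), MR at 10, 20 and 40 weeks (n = 5 each) and Sham at 2 weeks (n = 5). In MR rats a mitral leaflet was perforated through a left thoracotomy, and in Sham rats the leaflet was left intact. The labels give no age, sex or heart chamber and do not say which libraries came from separate animals, so a p-value measures the spread between these libraries. All Sham libraries are from 2 weeks, so at 10, 20 and 40 weeks the duration of MR, ageing and any change in handling cannot be told apart.

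Each synthetase joins 1 amino acid to the tRNAs that carry it, the step that fixes the genetic code before the ribosome reads it. The cytosol and the mitochondrial matrix use separate tRNAs and, for most amino acids, separate enzymes from separate nuclear genes; the Gars and Kars genes supply both compartments in mammals. Several cytosolic enzymes are bound in a multi-synthetase complex on the scaffold proteins Aimp1 and Aimp2, and the mitochondrial enzymes serve the translation of respiratory chain subunits, on which heart muscle draws heavily. When charged tRNA runs short, uncharged tRNA activates the kinase Gcn2 (gene Eif2ak4), eIF2 is phosphorylated and the transcription factor Atf4 is made. Atf4 binds C/EBP-ATF response elements (CARE) near many cytosolic synthetase genes.

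Matches to that element were counted around the gene starts. Promoter windows of 250 bases before to 50 bases after the gene start (RefSeq, assembly GRCr8) were matched for 35 of the 38 genes, with none for Dars, Gars and Rars. The letters TGATGNAA, searched on both strands, were found in 7 of 17 cytosolic windows (41.2%), 0 of 16 mitochondrial windows and 0 of 2 scaffold windows, against 3.82% of all 27457 windows and 1.77% of the 8200 windows of genes in the 40 week table. The 7 genes are Aars, Cars, Iars, Mars, Nars, Tars and Yars. The 8200 windows were matched by current symbol only, out of 10439 genes in the 40 week table. These 7 genes have since been renamed, so they are not in the share of 1.77%. In Cars and Yars the only match lies after the gene start. A match is a run of letters and was not tested as a binding site. The 5 matches before the gene start are shown because they include a gene that rose and a gene that fell at 40 weeks; each line is the gene's own strand from 5′ to 3′, with the match in capitals, up to 25 bases on its 5′ side, and up to 25 on the other side, ending at the gene start where that is nearer.
Iars, chr17:15193653-15193701, minus strand: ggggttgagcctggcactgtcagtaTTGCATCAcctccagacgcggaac
Tars, chr2:62114803-62114854, minus strand: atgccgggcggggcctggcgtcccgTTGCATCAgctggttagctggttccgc
Aars, chr19:55908345-55908402, plus strand: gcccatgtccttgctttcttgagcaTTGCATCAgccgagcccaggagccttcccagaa
Mars, chr7:65023754-65023795, minus strand: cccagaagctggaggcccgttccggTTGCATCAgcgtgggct
Nars, chr18:60275783-60275821, minus strand: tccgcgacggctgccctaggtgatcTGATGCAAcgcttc

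The reads on listed genes numbered 8181929 to 10403486 a library in MR at 2 weeks, 8803856 to 12097814 at 10 weeks, 9079440 to 10020346 at 20 weeks and 8809517 to 10912396 at 40 weeks, against 7691422 to 9703110 in Sham. The thinnest members were Nars2 with 2 to 159 reads and Ears2 with 12 to 52 reads. Of the 11 cardiomyocyte markers chosen, 10 were listed, and their summed level was 55537 to 72221 rescaled normalised counts in MR at 40 weeks and 58342 to 69274 in Sham. In bulk tissue, fewer cells of a type and less RNA per cell cannot be told apart.

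At 40 weeks the synthetases did not move as 1 group. Relative to Sham, 3 cytosolic enzymes (Dars, Iars and Eprs) and 3 mitochondrial enzymes (Nars2, Aars2 and Lars2) were higher, 2 cytosolic enzymes (Tars and Farsa) were lower, and both scaffold genes were lower. The other 15 cytosolic and 11 mitochondrial enzymes did not pass at an adjusted p of 0.05 (limma on log2(value + 1), Benjamini-Hochberg over all genes). The 10 members that passed are 10 of 36, where 47.3% of all 10094 tested genes passed, 16.3% higher and 30.9% lower. With 6 of 36 higher the members were close to the background in that direction, and with 4 of 36 lower they were below it. The groups did not overlap for 9 of the 36 members, where they did not for 29.2% of all genes.

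In the deposited values the 3 cytosolic enzymes that were higher all belong to the multi-synthetase complex. After the rescaling described below, Aars, which is outside it, passed as higher too, and Farsa no longer passed as lower. Dars, which charges aspartate (chromosome 13, 45074072 to 45127816, rn6), had 26.9, 23.9, 21.8, 34.4 and 32.7 normalised counts in MR at 40 weeks, against 17.7, 8.34, 8.12, 25.8 and 14.8 in Sham. The log2 fold change was 0.96 ± 0.26 (SE, adjusted p = 0.00829), with overlap because the highest Sham library exceeded 2 MR libraries. Iars, which charges isoleucine (chromosome 17, 15356016 to 15402632), had 26.2, 34.5, 28.7, 43.1 and 29.6 in MR at 40 weeks, against 21.6, 14.1, 15, 16.4 and 22.9 in Sham. Every MR library lay above every Sham library, a difference of 0.82 ± 0.17 (adjusted p = 0.00151). Eprs, the fused enzyme for glutamate and proline (chromosome 13, 103301074 to 103371458), had 48.3, 47.1, 40.5, 57.0 and 47.2 in MR at 40 weeks, against 39.9, 23.8, 25, 35.4 and 37.5 in Sham. Its groups were also apart, though the lowest MR library was next to the highest Sham library, and the difference was 0.58 ± 0.16 (adjusted p = 0.00906).

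Tars and Farsa, which are not held in that complex, were lower in the deposited values. Tars, which charges threonine (chromosome 2, 61395281 to 61414039), had 14.7, 13.6, 13.7, 12.8 and 13.2 normalised counts in MR at 40 weeks, against 20.3, 19.1, 17.6, 20.3 and 16.6 in Sham. The groups were apart and the MR libraries lay close together (13.6 ± 0.692 in MR at 40 weeks and 18.8 ± 1.67 in Sham, SD, n = 5 each), with a log2 fold change of -0.43 ± 0.11 (adjusted p = 0.00533). Iars and Tars moved in opposite directions, and both hold TTGCATCA before their starts. Any part of these letters in the differences was not tested. Farsa, the alpha subunit of the phenylalanine enzyme (chromosome 19, 25969255 to 25978778), had 13.4, 11.9, 14.2, 13.1 and 10.1 in MR at 40 weeks, against 16.6, 17.2, 14.5, 16.4 and 16.4 in Sham. Its difference of -0.35 ± 0.12 (adjusted p = 0.0244) is the smallest of those that passed. Farsb, the beta subunit of the same enzyme, differed by 0.20 ± 0.17 (adjusted p = 0.353) and did not pass.

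Among the mitochondrial enzymes, Nars2, which charges asparagine (chromosome 1, 161922193 to 162006951), had the highest fold change of all members. It had 5.24, 5.17, 3.16, 6.38 and 4.15 normalised counts in MR at 40 weeks, against 1.49, 0.742, 0.612, 2.18 and 2.21 in Sham. Every MR library was above every Sham library, and the difference was 1.28 ± 0.22 (adjusted p = 0.000579) on a scale that understates changes at such low values. Aars2, which charges alanine (chromosome 9, 17869705 to 17880764), had 11.2, 10.6, 10.7, 17.4 and 10.3 in MR at 40 weeks, against 7.12, 4.98, 3.32, 6.44 and 10.1 in Sham. The fourth MR library stood far above the others and the fifth Sham library nearly reached the MR range; the difference was 0.87 ± 0.22 (adjusted p = 0.00589). Lars2, which charges leucine (chromosome 8, 132441314 to 132536334), had 8.89, 8.75, 8.33, 12.7 and 8.23 in MR at 40 weeks, against 5.69, 5.06, 3.93, 7.56 and 7.76 in Sham. The groups were apart, again with the fourth MR library highest, and the difference was 0.59 ± 0.17 (adjusted p = 0.0139).

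The scaffold genes moved the other way from the complex enzymes that passed. Aimp1 (chromosome 2, 237727782 to 237751328) had 21.0, 22.9, 26.9, 19.9 and 16.5 normalised counts in MR at 40 weeks, against 38.8, 33.8, 37.3, 35.8 and 31.6 in Sham. Aimp2 (chromosome 12, 12738855 to 12748346) had 15.7, 17, 18.5, 13 and 12.3 in MR at 40 weeks, against 30.1, 31.6, 31.7, 29.4 and 24.7 in Sham. For both genes every MR library lay below every Sham library. Aimp1 fell by 0.71 ± 0.13 and Aimp2 by 0.91 ± 0.13 on the log2 scale (adjusted p = 0.00093 and 0.000267). Of the 10 complex members among these genes, 3 rose (Dars, Eprs and Iars), 2 fell (Aimp1 and Aimp2) and 5 did not pass (Kars, Lars, Mars, Qars and Rars, between -0.19 and 0.15). Eef1e1, the other scaffold component of the complex, differed by -0.03 ± 0.19 (adjusted p = 0.912).

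**Figure D1:**
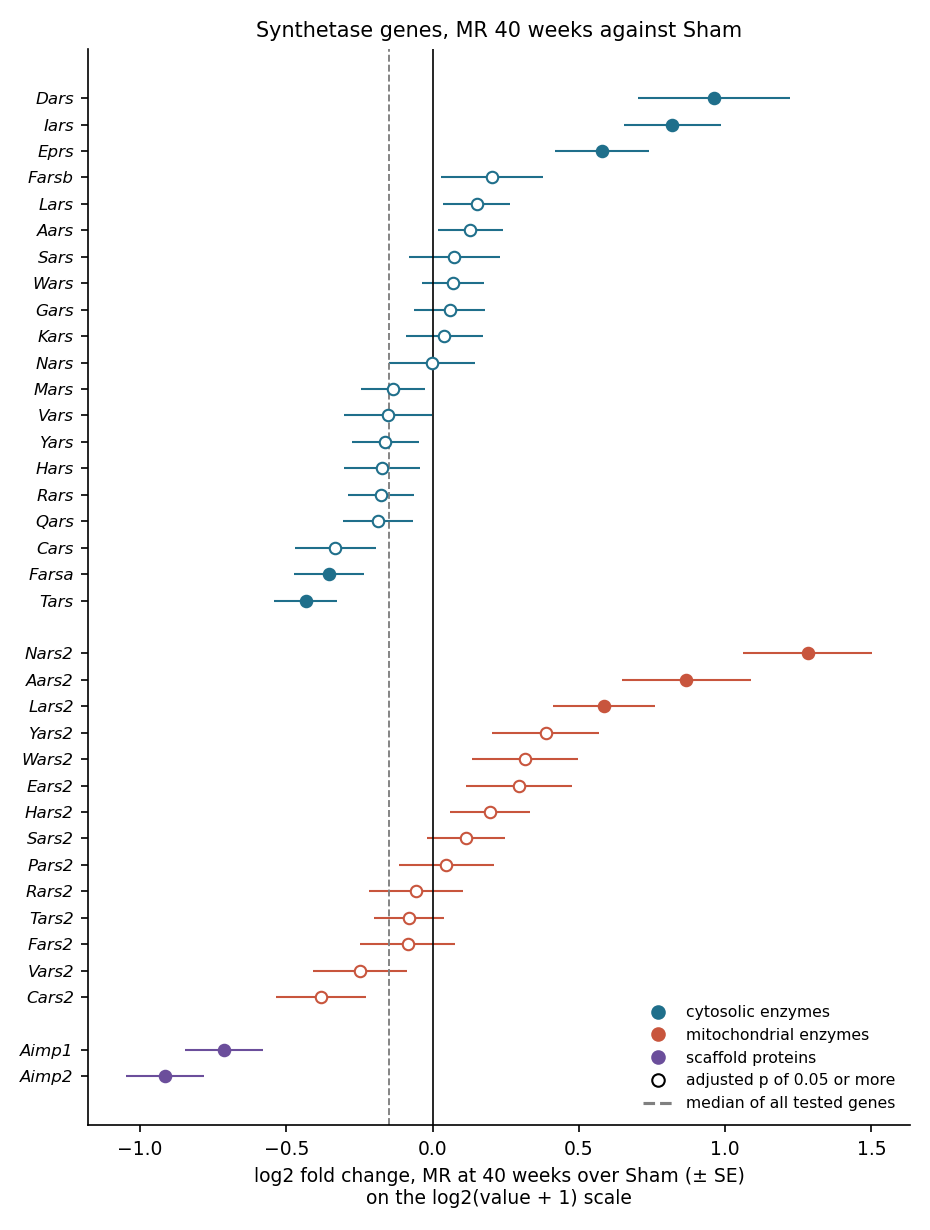
Log2 fold change of each of the 36 genes in MR at 40 weeks over Sham with its SE, on the log2(value + 1) scale; filled points passed at an adjusted p under 0.05 and the dashed line is the median of all tested genes (-0.15). In both enzyme classes 3 genes stand well to the right, while Aimp1 and Aimp2 lie at the far left.

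The scale on which all genes are read matters here, because the median of all tested genes stood at -0.15 between MR at 40 weeks and Sham in the deposited values. After each library was rescaled by the median of its ratios, that median was -0.01, and the split over all genes changed to 2391 higher and 2196 lower, beside 1648 higher and 3124 lower in the deposited values. Of the 36 members 10 were then higher and 3 lower, counts to be read beside that split over all genes. Whether the members differ from all genes in this was not tested. Aars (0.28 ± 0.10, adjusted p = 0.027), Lars (0.30 ± 0.11, adjusted p = 0.0321), Hars2 (0.35 ± 0.13, adjusted p = 0.0371) and Yars2 (0.52 ± 0.17, adjusted p = 0.0246) passed as higher after rescaling. Lars is among the complex members named above and Aars is not. Farsa no longer passed (-0.21, adjusted p = 0.111), and its call was also lost without MR 40 weeks replicate 2 or 5 or without Sham replicate 2. The other 9 calls held, with Aimp1 at -0.56, Aimp2 at -0.76 and Tars at -0.28.

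Set beside each other, the 2 enzyme classes overlapped. The median fold change at 40 weeks was 0.02 over the 20 cytosolic enzymes, 10 of them above 0, and 0.15 over the 14 mitochondrial enzymes, 9 of them above 0, against -0.15 over all tested genes. The cytosolic enzymes ranged between -0.43 and 0.96 and the mitochondrial between -0.38 and 1.28. Per library, after rescaling and relative to the Sham mean, the median of the mitochondrial enzymes less that of the cytosolic enzymes was -0.05 to 0.23 in MR at 40 weeks and -0.21 to 0.21 in Sham. The 2 groups overlap on that measure, and a difference between the classes was not tested.

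**Figure D2:**
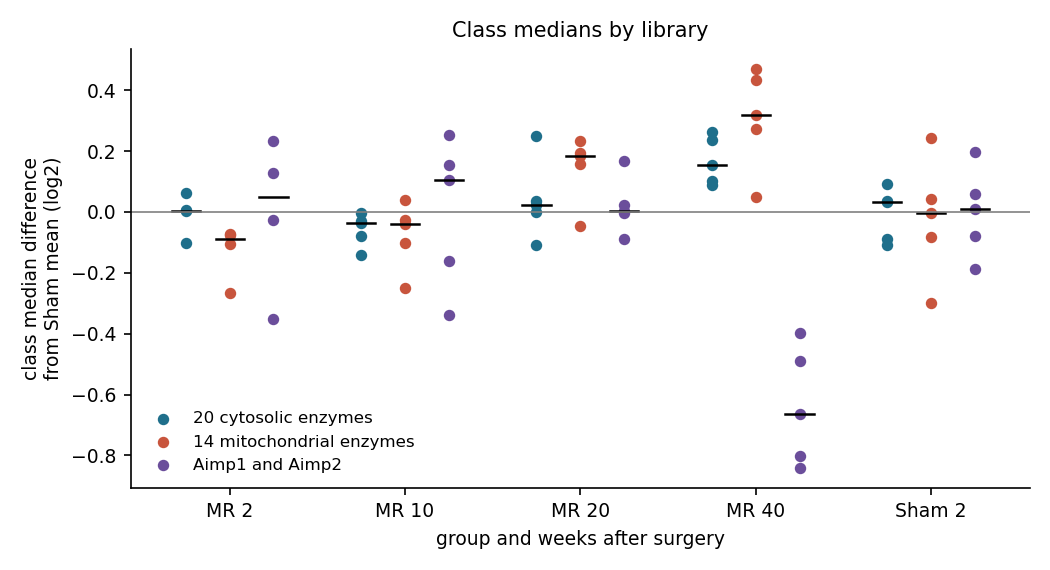
Median log2 difference from the Sham mean over the 20 cytosolic enzymes, the 14 mitochondrial enzymes and the 2 scaffold genes in each library after rescaling; bars are group medians. In MR at 40 weeks the cytosolic medians were 0.09 to 0.26, the mitochondrial 0.05 to 0.47 and the scaffold medians -0.84 to -0.40, and only the scaffold values are clear of every other group.

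For 11 amino acids the set holds a cytosolic and a mitochondrial gene whose symbols differ only by the final 2. Their ratio within a library does not depend on how libraries are scaled, apart from the pseudocount. Glutamate and proline (Eprs beside Ears2 and Pars2) and phenylalanine (Farsa and Farsb beside Fars2) were not among these pairs. At 40 weeks Eprs differed from Sham by 0.58, beside 0.30 for Ears2 and 0.05 for Pars2. Fars2 differed by -0.08, between Farsa at -0.35 and Farsb at 0.20. The log2 ratio of the mitochondrial to the cytosolic enzyme was higher in MR at 40 weeks for 9 of the 11 pairs. For asparagine it was -2.39 ± 0.264 in MR at 40 weeks and -3.67 ± 0.348 in Sham (SD, n = 5 each), with no overlap, and for alanine -1.94 ± 0.249 in MR at 40 weeks and -2.67 ± 0.372 in Sham, also with no overlap. In the deposited values neither cytosolic enzyme had passed at 40 weeks, while both mitochondrial enzymes had; after rescaling Aars passed as well, as given above. The leucine, threonine and tyrosine pairs differed by 0.43, 0.35 and 0.55, and the cysteine and valine pairs by -0.05 and -0.10. The arginine and serine pairs, both counted as higher, differed by 0.12 and 0.04. Leaving out a single library put the serine difference between -0.09 and 0.12. Apart from asparagine and alanine, MR and Sham libraries overlap in every pair. These ratios depend on the pseudocount at low counts: the asparagine difference of 1.28 was 1.79 with a pseudocount of 0.1 and 0.37 with 10, and the alanine difference of 0.74 was 0.33 with 10. The pairs were looked at with these results known and no test is given.

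Histidine is a special case, because Hars and Hars2 start from opposite strands of 1 short stretch of DNA. In GRCr8 only 143 bases separate the 2 starts, and they are printed here because any element in them lies before both genes. The plus strand of chr18:28672713-28672855, read from the Hars start towards the Hars2 start, is shown.
Hars and Hars2: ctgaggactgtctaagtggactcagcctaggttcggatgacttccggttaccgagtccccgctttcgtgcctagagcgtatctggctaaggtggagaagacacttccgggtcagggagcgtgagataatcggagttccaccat
Hars, the cytosolic enzyme, had 18.2, 19.4, 19.1, 18 and 18.2 normalised counts in MR at 40 weeks, against 24.1, 17.9, 16.7, 24.1 and 23.8 in Sham. Hars2 had 21.2, 18.9, 18.5, 27.8 and 20.9 in MR at 40 weeks, against 21.1, 17.6, 15, 19.1 and 19.8 in Sham. Neither passed in the deposited values (-0.17 ± 0.13 for Hars and 0.20 ± 0.14 for Hars2), and both groups overlap. The log2 ratio of Hars2 to Hars was 0.18 ± 0.261 in MR at 40 weeks and -0.19 ± 0.112 in Sham (SD, n = 5 each). It ranged from -0.05 to 0.59 in MR at 40 weeks and from -0.32 to -0.02 in Sham, so the groups overlap.

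Fold changes at 40 weeks were set against the length of each gene. Sorted by span from start to stop into 5 equal parts, all tested genes had medians of -0.41, -0.25, -0.14, -0.02 and 0.10 from the shortest to the longest, with a Spearman correlation of 0.33 across 10094 genes. Across the 36 members the correlation was 0.35, and their medians in the same parts were 0.22, -0.17, -0.11, 0.07 and 0.58, over 2, 8, 12, 9 and 5 members. The 2 shortest were Pars2 (0.05 ± 0.16) and Yars2 (0.39 ± 0.18), where all genes of that length had a median of -0.41. Neither passed in the deposited values, and both overlap Sham. Genes are not independent replicates, and these are descriptions. Of the 6 members that rose, Nars2, Lars2 and Eprs are in the longest part and Dars and Iars in the next, while Aars2, at 11.1 kb, is in the second shortest. Of the 4 that fell, Farsa and Aimp2 are in the second shortest part and Tars and Aimp1 in the middle one. The part of span in these differences was not tested.

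**Figure D3:**
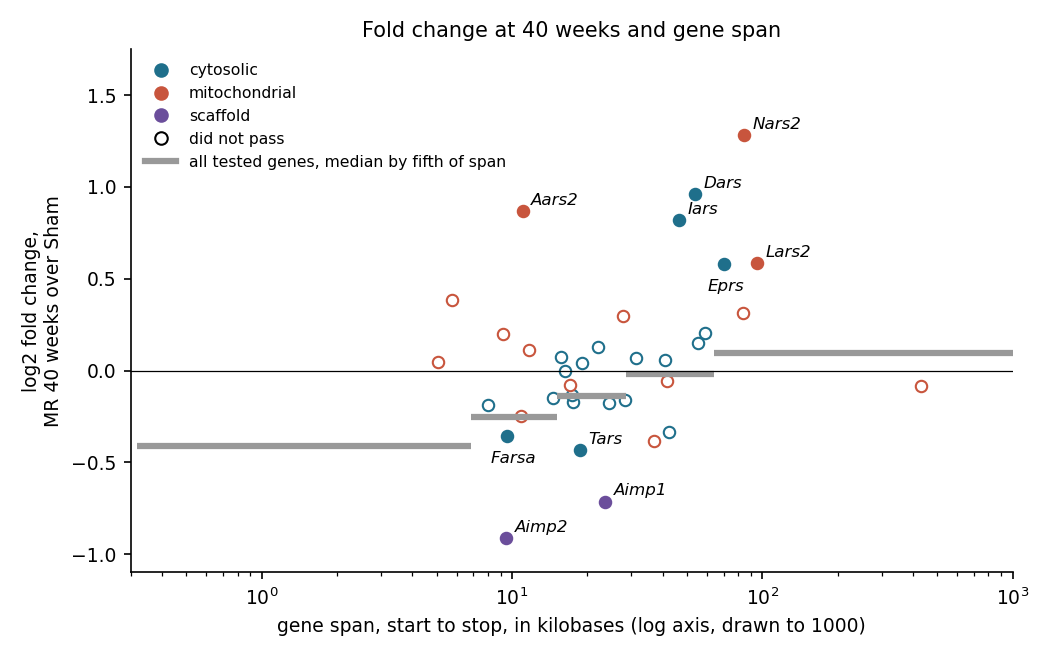
Log2 fold change in MR at 40 weeks over Sham against gene span in kilobases (log axis) for the 36 genes; grey bars are medians of all tested genes in 5 equal parts by span. The grey bars climb with span (-0.41 to 0.10), and 5 of the 6 filled points above 0 are among the longer genes, with Aars2 as the exception.

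Some members share their stretch of chromosome with other listed genes, and reads cannot always be told apart. Iars overlaps the listed spans of Aspn, Nol8, Ogn and Omd on the same strand. Of these, Ogn rose by 0.78 ± 0.19 (adjusted p = 0.00504) and Nol8 differed by -0.17 ± 0.13 (adjusted p = 0.278). Mars overlaps Ddit3 on the opposite strand, and whether the counting used strand is not given in the sources used here, so neither gene's value is certain. Vars overlaps the listed span of Ltb on the opposite strand, with the same limit.

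Some cell type markers passed at 40 weeks too, in counts to be read beside the 47.3% of all genes that passed, and their part in the synthetase values was not tested. Of 10 cardiomyocyte markers 2 rose and 4 fell, led by the troponin Tnni3 (-1.35 ± 0.21) and the calcium channel Ryr2 (1.12 ± 0.22), whose directions are opposite. Of 9 fibroblast markers 1 rose and 4 fell, of 8 endothelial markers 1 rose and 4 fell, and of 8 macrophage markers 0 rose and 3 fell. Of 7 smooth muscle and pericyte markers 1 rose and 2 fell, of 4 adipocyte markers 0 rose and 2 fell, and of 3 lymphocyte markers 0 rose and 1 fell. The summed rescaled level of the fibroblast markers was 838 to 1174 in MR at 40 weeks and 1040 to 2971 in Sham, that of the endothelial markers 560 to 763 in MR at 40 weeks and 594 to 858 in Sham, and that of the macrophage markers 41.0 to 105 in MR at 40 weeks and 67.2 to 133 in Sham. For smooth muscle and pericyte markers it was 115 to 266 in MR at 40 weeks and 127 to 461 in Sham, and for lymphocyte markers 13.3 to 17.2 in MR at 40 weeks and 12.2 to 20.2 in Sham. All of these ranges overlap. The adipocyte markers summed to 204 to 330 in MR at 40 weeks and 360 to 602 in Sham, which do not overlap. No listed marker was at 0 in any library.

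At the earlier times no member passed. At 2 weeks 0 of 36 members passed in limma, edgeR or DESeq2, where 0% of 10173 genes passed in limma, 0 genes in edgeR and 57 genes in DESeq2. At an unadjusted p of 0.05 limma called 1 member, where it called 5.47% of all genes. That member was Cars2, which charges mitochondrial cysteine, with 5.36 to 9.52 normalised counts in MR at 2 weeks (median 8.28) and 7.33 to 12.7 in Sham (median 11.5). Its difference was -0.44 ± 0.19 (adjusted p = 0.84) and its groups overlap. The next mitochondrial enzymes by p were Rars2 (2.41 to 3.11, median 2.75, in MR at 2 weeks and 2.64 to 4.03, median 3.95, in Sham; -0.29 ± 0.16, adjusted p = 0.84) and Tars2 (39.3 to 51.7, median 42.8, in MR at 2 weeks and 41.8 to 56.6, median 53.7, in Sham; -0.22 ± 0.14, adjusted p = 0.84). Of the mitochondrial enzymes 1 of 14 was above 0, with a median of -0.20, beside 4 of 20 cytosolic enzymes with a median of -0.11 and a median of -0.07 over all genes. The cytosolic enzymes nearest to passing were Mars (20.9 to 24.5, median 22.5, in MR at 2 weeks and 23.7 to 29.4, median 26.2, in Sham; -0.20 ± 0.13), Lars (17.1 to 20.6, median 19.1, in MR at 2 weeks and 19.3 to 23.2, median 22.2, in Sham; -0.19 ± 0.13) and Cars (14.1 to 21.1, median 18.3, in MR at 2 weeks and 12.1 to 20.4, median 13.8, in Sham; 0.23 ± 0.18), with adjusted p of 0.84, 0.842 and 0.845. All 6 genes overlap between the groups.

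At 10 weeks 0 of 36 members passed, where 0.168% of 10096 genes did (17 in limma, 5 in edgeR and 83 in DESeq2), and 0 members reached an unadjusted p of 0.05 in limma, where 12% of all genes did, and 2 in edgeR and in DESeq2. Nars2, the member that stands highest at 40 weeks, was low: 0.105 to 1.18 normalised counts in MR at 10 weeks (median 0.648) and 0.634 to 2.27 in Sham (median 1.51), a difference of -0.52 ± 0.24 (adjusted p = 0.422). Aars2 (2.37 to 6.94, median 5.42, in MR at 10 weeks and 3.43 to 10.3, median 6.41, in Sham) and Lars2 (2.90 to 6.80, median 4.76, in MR at 10 weeks and 4.07 to 7.96, median 5.77, in Sham) differed by -0.31 ± 0.26 and -0.24 ± 0.20 (adjusted p = 0.677 each). Of the cytosolic enzymes, Aars (34.6 to 43.6, median 39.2, in MR at 10 weeks and 40.5 to 51.1, median 45.7, in Sham) differed by -0.19 ± 0.12 (adjusted p = 0.533). Farsa (16.7 to 23.2, median 19.1, in MR at 10 weeks and 15.1 to 17.7, median 16.8, in Sham) and Tars (18.8 to 26.3, median 19.7, in MR at 10 weeks and 17 to 20.5, median 19.6, in Sham), both lower at 40 weeks, differed by 0.20 ± 0.12 and 0.18 ± 0.13 (adjusted p = 0.542 and 0.634). All of these groups overlap. The class medians were 0.01 for cytosolic and -0.02 for mitochondrial enzymes, beside 0.06 over all genes.

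At 20 weeks 0 of 36 members passed, where 0.0698% of 10025 genes did (7 in limma, 8 in edgeR and 92 in DESeq2), and 0 members reached an unadjusted p of 0.05 in limma, where 9.49% of all genes did, 0 in edgeR and 1 in DESeq2. Iars (17.8 to 25.2, median 22.5, in MR at 20 weeks and 14 to 22.6, median 16, in Sham) differed by 0.28 ± 0.16 (adjusted p = 0.622), Dars (12.5 to 20.7, median 17.3, in MR at 20 weeks and 8.23 to 25.1, median 14.6, in Sham) by 0.33 ± 0.26 (adjusted p = 0.741) and Qars, the glutamine enzyme (46.0 to 50.3, median 46.3, in MR at 20 weeks and 38.6 to 47.6, median 44.6, in Sham), by 0.11 ± 0.11 (adjusted p = 0.792). Of the mitochondrial enzymes, Hars2 (19.2 to 23.8, median 20.8, in MR at 20 weeks and 15.2 to 20.7, median 18.6, in Sham), Rars2 (2.89 to 6.38, median 4.32, in MR at 20 weeks and 2.59 to 3.78, median 3.62, in Sham) and Tars2 (44.7 to 61.0, median 58.1, in MR at 20 weeks and 41.0 to 53.1, median 49.3, in Sham) differed by 0.20 ± 0.12, 0.28 ± 0.19 and 0.20 ± 0.12 (adjusted p = 0.652, 0.702 and 0.673). These groups overlap too. The class medians were 0.04 for cytosolic and 0.12 for mitochondrial enzymes, 12 of 14 of them above 0, beside a median of 0.00 over all genes.

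MR times were also set against each other without Sham, in 1 fit of all libraries after rescaling, so the values below are rescaled normalised counts. Between MR at 10 and 2 weeks 0 of 36 members passed in limma, edgeR or DESeq2, where 1.37% of 9984 genes did in limma, and 3 members reached an unadjusted p of 0.05, where 15.2% of all genes did. They were Cars (12.1 to 15, median 14.1, at 10 weeks and 13.7 to 21.9, median 18.1, at 2 weeks; -0.35 ± 0.13, adjusted p = 0.203), Aars (32.2 to 39.2, median 36.2, at 10 weeks and 38.2 to 45.4, median 44.1, at 2 weeks; -0.25 ± 0.10, adjusted p = 0.248) and Eprs (24.1 to 27.4, median 26.4, at 10 weeks and 31.1 to 36.2, median 33.6, at 2 weeks; -0.35 ± 0.15, adjusted p = 0.27). Eprs and Wars2 (2.85 to 3.34, median 3.28, at 10 weeks and 2.18 to 2.67, median 2.43, at 2 weeks; 0.27 ± 0.15, adjusted p = 0.425) were the 2 of 36 members whose groups did not overlap, where 5.16% of all genes did not. Nars2 (0.0979 to 1.06, median 0.647, at 10 weeks and 0.772 to 1.95, median 1.34, at 2 weeks) and Aars2 (2.20 to 6.93, median 4.87, at 10 weeks and 5.11 to 7.99, median 6.0, at 2 weeks) differed by -0.52 ± 0.26 and -0.42 ± 0.24 (adjusted p = 0.339 and 0.425).

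Between MR at 20 and 10 weeks 0 of 36 members passed in limma, where 0.01% of 9984 genes did, 0 in edgeR and 1 in DESeq2. The DESeq2 call was Nars2 (1.76, adjusted p = 0.0326), which limma placed at 0.91 ± 0.24 (adjusted p = 0.217). Nars2 had 0.995, 1.48, 2.77, 1.65 and 4.14 rescaled counts at 20 weeks, against 0.563, 0.647, 0.838, 0.0979 and 1.06 at 10 weeks, so a single 20 week library lay below the highest 10 week library. In limma 6 members reached an unadjusted p of 0.05, where 15.2% of all genes did. They were Nars2, Lars2, Iars, Tars2, Aars and Aars2. Lars2 had the next smallest p (6.39 to 9.04, median 6.43, at 20 weeks and 2.69 to 6.08, median 4.76, at 10 weeks; 0.53 ± 0.17, adjusted p = 0.231), then Iars (16.6 to 26.7, median 22.8, at 20 weeks and 12.6 to 18.3, median 15.2, at 10 weeks; 0.47 ± 0.16, adjusted p = 0.244). Tars2 (45.5 to 60.7, median 58.3, at 20 weeks and 42.9 to 52.8, median 47.0, at 10 weeks), Aars (37.0 to 52.7, median 39.2, at 20 weeks and 32.2 to 39.2, median 36.2, at 10 weeks) and Dars (12.7 to 21.9, median 17.2, at 20 weeks and 8.08 to 16.7, median 11.9, at 10 weeks) differed by 0.25 ± 0.10, 0.23 ± 0.10 and 0.50 ± 0.25 (adjusted p = 0.263, 0.288 and 0.334). Lars2 was the 1 member of 36 whose groups did not overlap, where 3.06% of all genes did not. Of the members 27 of 36 were above 0, with a median of 0.15, beside 4946 of 9984 genes and a median of 0.00 over all genes.

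Between MR at 40 and 20 weeks 13 of 36 members passed, 10 higher and 3 lower, where 38.8% of 9984 genes passed (21.3% higher and 17.6% lower). The groups did not overlap for 7 of the 36, where they did not for 22.9% of all genes. The largest differences among the enzymes were in Nars2, Aars2, Eprs, Dars and Iars. Eprs had 52.4, 53.3, 43.3, 63.3 and 57.4 rescaled counts at 40 weeks, against 22.4, 25.7, 30.8, 29.8 and 43.1 at 20 weeks (0.83 ± 0.14, adjusted p = 0.000107). The groups were apart by a small margin, set by the fifth 20 week library. Nars2 had 5.68, 5.85, 3.38, 7.07 and 5.06 at 40 weeks, against 0.995, 1.48, 2.77, 1.65 and 4.14 at 20 weeks (1.05 ± 0.24, adjusted p = 0.00163), and Aars2 had 12.2, 12, 11.5, 19.4 and 12.6 at 40 weeks, against 5.97, 5.54, 5.07, 7.56 and 8.89 at 20 weeks (0.93 ± 0.23, adjusted p = 0.00236). Nars2 overlaps between the groups and Aars2 does not.

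Iars (28.4 to 47.8, median 36.0, at 40 weeks and 16.6 to 26.7, median 22.8, at 20 weeks) and Dars (23.3 to 39.8, median 29.2, at 40 weeks and 12.7 to 21.9, median 17.2, at 20 weeks) differed by 0.71 ± 0.16 and 0.80 ± 0.25 (adjusted p = 0.00169 and 0.0143), both without overlap. Aars, Gars, Lars and Wars, the enzymes for alanine, glycine, leucine and tryptophan, rose by smaller amounts of 0.34 ± 0.10, 0.32 ± 0.10, 0.35 ± 0.10 and 0.31 ± 0.12 (adjusted p = 0.00811, 0.0176, 0.0101 and 0.0407), each with overlapping groups, and Lars2 rose by 0.52 ± 0.17 (adjusted p = 0.0161). Of these 5 genes, only Lars is among the complex members named above. With values as deposited, where the median of all genes was -0.13, none of the 5 passed. Dars then stood just outside the threshold with a fold change still large (0.64 ± 0.26, adjusted p = 0.0519). The Wars call was lost in edgeR (0.29, adjusted p = 0.0629) and without any 1 of MR 40 weeks replicates 1, 2, 4 and 5 or MR 20 weeks replicates 1 to 4. Lars2 was lost without MR 40 weeks replicate 4 (0.42, adjusted p = 0.0598) and Gars without MR 20 weeks replicate 1 (0.28, adjusted p = 0.0529).

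Aimp2 had 17, 19.3, 19.8, 14.4 and 15 rescaled counts at 40 weeks, against 30.8, 31.8, 26.6, 26.1 and 31.3 at 20 weeks, and fell by 0.75 ± 0.13 (adjusted p = 0.000136). Aimp1 had 22.8, 25.9, 28.8, 22.1 and 20.0 at 40 weeks, against 32.9, 40.3, 37.9, 34.2 and 33.5 at 20 weeks, and fell by 0.57 ± 0.13 (adjusted p = 0.00146). Farsa (12.3 to 15.2, median 14.5, at 40 weeks and 16.4 to 20.4, median 17, at 20 weeks) fell by 0.31 ± 0.10 (adjusted p = 0.0136). For these 3 genes the 40 week group lay wholly below the 20 week group, with rescaled values and with no Sham library in the difference.

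Within MR at 20 weeks, replicate 5 was the highest library of its group for Eprs (43.1), Iars (26.7), Dars (21.9), Nars2 (4.14), Aars2 (8.89) and Lars2 (9.04). These are the enzymes that were higher at 40 weeks than in Sham, but the trait is not particular to them. Replicate 5 was also highest for enzymes that did not pass, among them Gars, Kars, Sars, Vars and Wars. Its median over the cytosolic enzymes, relative to the Sham mean, was 0.25, beside -0.11 to 0.04 in the other 20 week libraries. Its mitochondrial median was 0.16, beside -0.05 to 0.23. Of the 4 genes that were lower at 40 weeks than in Sham, replicate 5 was the lowest library of its group for Tars (15.9, others 17.2 to 18.3) and, by a small margin, for Farsa (16.4, others 16.5 to 20.4), but not for Aimp1 (33.5) or Aimp2 (31.3).

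**Figure D4:**
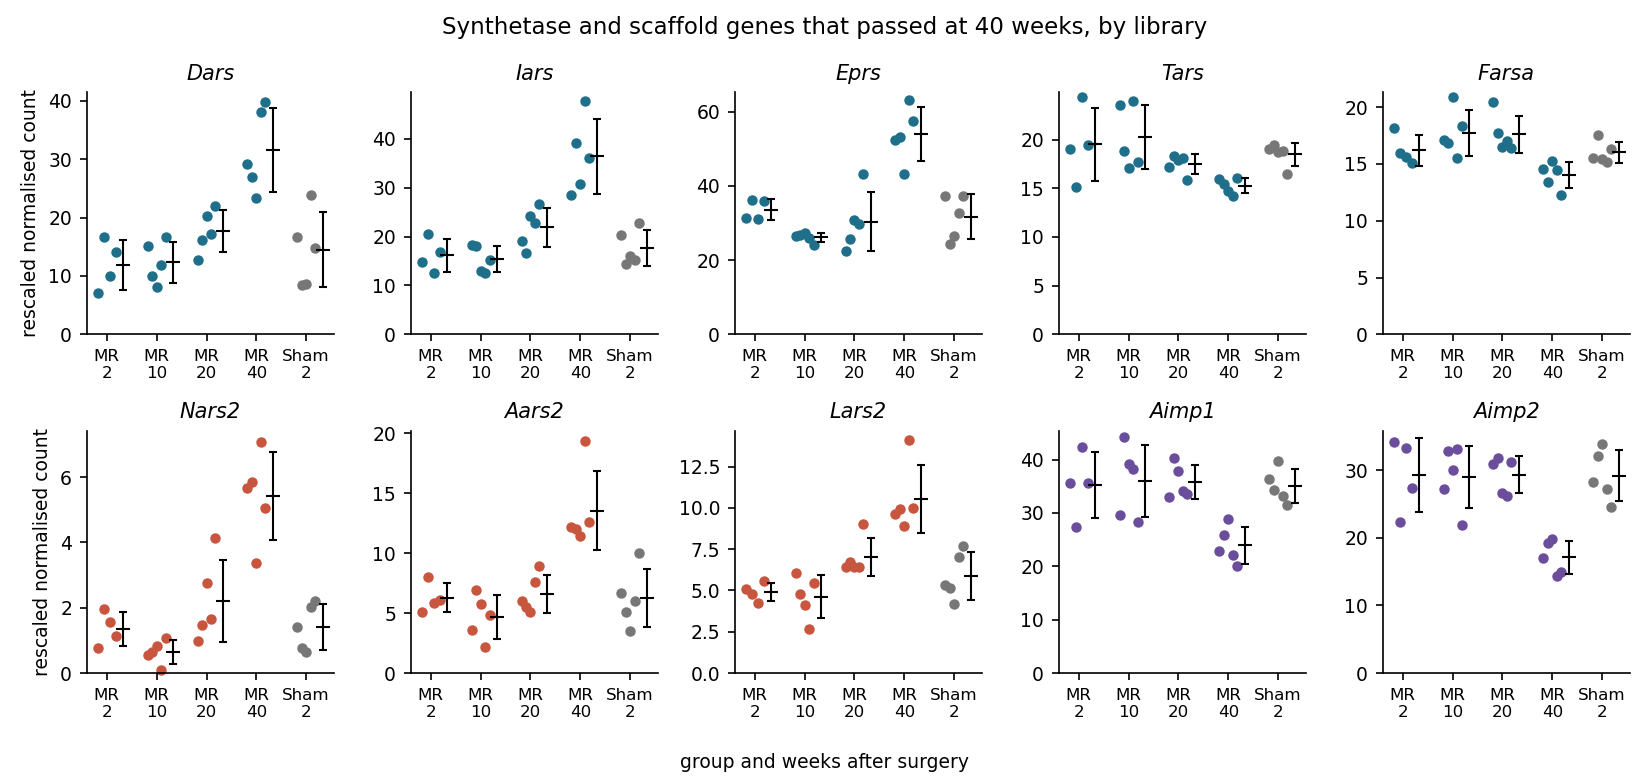
Rescaled normalised counts in each library for the 10 genes that passed at 40 weeks, by group and weeks after surgery, with group mean and SD. Values at 2, 10 and 20 weeks overlap Sham for all 10 genes, while at 40 weeks the group mean is above every other group's for Dars, Iars, Eprs, Nars2, Aars2 and Lars2 and below every other group's for Tars, Farsa, Aimp1 and Aimp2.

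Between MR at 40 and 2 weeks 16 of 36 members passed, 12 higher and 4 lower, where 45.7% of 9984 genes passed (24.3% higher and 21.3% lower). The groups did not overlap for 13 of the 36, where they did not for 32.1% of all genes. Iars (28.4, 39.1, 30.7, 47.8 and 36.0 at 40 weeks, against 14.8, 20.5, 12.6 and 16.8 at 2 weeks) rose by 1.12 ± 0.17 (adjusted p = 4.89e-05), and Dars (29.2, 27.0, 23.3, 38.1 and 39.8 at 40 weeks, against 7.09, 16.7, 9.92 and 14.1 at 2 weeks) by 1.36 ± 0.26 (adjusted p = 0.000332). Lars2 (9.64, 9.90, 8.91, 14.1 and 10.0 at 40 weeks, against 5.07, 4.77, 4.26 and 5.58 at 2 weeks) rose by 0.95 ± 0.18 (adjusted p = 0.000227). In all of these every 40 week library was above every 2 week library. Nars2, Aars2, Eprs, Wars2 and Lars rose by 1.44 ± 0.26, 0.99 ± 0.24, 0.66 ± 0.15, 0.68 ± 0.15 and 0.43 ± 0.11 (adjusted p = 0.000161, 0.00208, 0.00143, 0.00121 and 0.00317), also without overlap.

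Wars2, the mitochondrial tryptophan enzyme, was at 3.12 to 5.92 at 40 weeks (median 4.45) and 2.18 to 2.67 at 2 weeks (median 2.43). In limma the 40 week comparison with Sham did not call Wars2 in the deposited values (0.32 ± 0.18, adjusted p = 0.168). After rescaling, that comparison stood just outside the threshold (0.44 ± 0.18, adjusted p = 0.0559). Aars, Farsb, Sars and Hars2 rose by 0.33 to 0.45 (adjusted p = 0.0136 to 0.0432), and with values as deposited, where the median of all genes was -0.15, these 4 and Lars did not pass. Cars (11.2 to 13.9, median 12.4, at 40 weeks and 13.7 to 21.9, median 18.1, at 2 weeks) fell by 0.47 ± 0.13 (adjusted p = 0.00717) and Tars (14.2 to 16, median 15.4, at 40 weeks and 15.2 to 24.4, median 19.2, at 2 weeks) by 0.32 ± 0.12 (adjusted p = 0.0325), both with overlap. Aimp2 and Aimp1 fell by 0.74 ± 0.14 and 0.53 ± 0.14 (adjusted p = 0.000294 and 0.00328). Single libraries decided several of these calls: Aars, Farsb, Sars and Tars were each lost without MR 2 weeks replicate 1 (adjusted p up to 0.214), Hars2, Sars and Tars without replicate 3 of that group (up to 0.195), Hars2 and Tars without its replicate 4, and Hars2 without its replicate 2. Leaving out 1 of MR 40 weeks replicates 1 to 5 also ended at least 1 of the calls of Farsb, Sars, Hars2 and Tars.

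Of the genes around tRNA charging, those of the amino acid stress response moved in both directions at 40 weeks. Of 21 measured genes 3 rose and 6 fell, close to the shares over all genes (16.3% higher and 30.9% lower). Their median of -0.20 is to be read beside that of all tested genes, given above. Ddit3, a transcription factor of the stress response, had the smallest p, at 20.0 ± 3.55 normalised counts in MR at 40 weeks and 39.9 ± 4.84 in Sham (SD, n = 5 each; -0.97 ± 0.14, adjusted p = 0.000259), with the overlap with Mars named above. Phgdh, the first enzyme of serine synthesis, fell by 1.04 ± 0.16 (adjusted p = 0.000362), and the lipoprotein receptor Vldlr rose by 1.10 ± 0.23 (adjusted p = 0.0017). Atf4 was at 65.9 ± 24.7 in MR at 40 weeks and 93.1 ± 19 in Sham, with overlapping groups (-0.54 ± 0.21, adjusted p = 0.0491). That call lies at the edge of the threshold, in deposited values where the median of all genes was negative. Of the 13 synthetases that are known as Atf4 targets from work in other species, 2 rose (Eprs and Iars) and 1 fell (Tars), with a median of 0.06.

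Over time, Ddit3 was higher at 10 weeks (65.3 ± 5.09 in MR at 10 weeks and 40.7 ± 4.59 in Sham, SD, n = 5 each; 0.67 ± 0.12, adjusted p = 0.0358), when no synthetase passed. It differed by -0.12 ± 0.23 at 2 weeks (adjusted p = 0.933) and by 0.08 ± 0.17 at 20 weeks (adjusted p = 0.921). Atf4 differed by -0.08 ± 0.19, 0.28 ± 0.14 and -0.08 ± 0.17 at 2, 10 and 20 weeks (adjusted p = 0.952, 0.46 and 0.915). Between MR times, Ddit3 fell by 0.88 ± 0.18 at 40 against 20 weeks (adjusted p = 0.000514) and by 0.76 ± 0.19 at 40 against 2 weeks (adjusted p = 0.00257). It differed by 0.64 ± 0.19 at 10 against 2 weeks (adjusted p = 0.0893) and by -0.52 ± 0.18 at 20 against 10 weeks (adjusted p = 0.243). Atf4 passed in none of these 4 (0.20 ± 0.19 at 10 against 2 weeks, -0.28 ± 0.18 at 20 against 10 weeks, -0.29 ± 0.18 at 40 against 20 weeks and -0.36 ± 0.19 at 40 against 2 weeks; adjusted p = 0.655, 0.423, 0.209 and 0.116). Asns was not analysed here.

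Among the eIF2 kinases, eIF2 phosphatases and eIF2B subunits, 1 of 12 rose and 4 fell at 40 weeks. Eif2ak1, the heme-sensing eIF2 kinase, rose by 1.09 ± 0.19 (adjusted p = 0.000679), while Eif2b1, a subunit of the exchange factor that recharges eIF2, and Eif2s1, eIF2 alpha itself, fell by 0.67 ± 0.13 and 0.38 ± 0.11 (adjusted p = 0.00139 and 0.0137). Of 13 other genes of tRNA charging 0 rose and 4 fell. Pstk and Sepsecs, which act in sequence to make selenocysteine on its tRNA, fell by 0.64 ± 0.16 and 0.53 ± 0.17 (adjusted p = 0.00652 and 0.0187), and Aarsd1, an editing enzyme for mischarged alanine tRNA, by 0.55 ± 0.14 (adjusted p = 0.00688).

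Of 10 mitochondrial translation factors 3 rose and 2 fell at 40 weeks (median 0.24). Gfm2, a factor that recycles mitochondrial ribosomes, and Tsfm, the exchange factor of mitochondrial elongation, rose by 0.75 ± 0.18 and 0.70 ± 0.23 (adjusted p = 0.00418 and 0.0221), and Mtg2, a GTPase of mitochondrial ribosome assembly, fell by 0.63 ± 0.13 (adjusted p = 0.0014). Of 6 cytosolic elongation factors 1 rose and 2 fell. Eef1b2 and Eef1d, subunits of the exchange complex of eEF1A, fell by 0.91 ± 0.15 and 1.01 ± 0.16 (adjusted p = 0.000428 and 0.000444), and Eef1a2, the eEF1A form of mature muscle, rose by 0.77 ± 0.28 (adjusted p = 0.0328). Of 19 genes of RNA polymerase III and tRNA processing 1 rose and 4 fell; the polymerase subunit Polr3gl fell by 0.72 ± 0.17 (adjusted p = 0.00392) and the subunit Polr3b rose by 0.65 ± 0.20 (adjusted p = 0.0164). Each of these counts against Sham, from the stress response on, is from the deposited values. Each stands beside the 47.3% of all genes that passed (16.3% higher and 30.9% lower).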

How the data were processed

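The deposited signal values, per the file headers, are normalised gene counts in 4 tables, each with 1 MR time beside the same 5 Sham libraries. Per the submitters' processing notes, Partek and the rat build rn6 were used. Details of the aligner, annotation, strand setting, scaling rule and coordinate base were not given in the sources used here. Undoing 1 factor per library gave whole reads, within 0.1 read, for 97.4% to 97.5% of each table's values, and the depths printed come from these reads. No 2 libraries of a group agreed within counting error: over 46 pairs the chi-square per gene was 10.4 to 112.

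Each MR time was tested against Sham in its own table with limma 3.58.1 (R 4.3.3, mean trend) on log2(value + 1), for genes with a mean of at least 1. Adjusted p-values are Benjamini-Hochberg over all tested genes, two-sided, with a threshold of 0.05, and a fold change on this scale understates that of low genes. MR times were compared in 1 fit of 24 libraries and 9984 genes found in all tables, after rescaling by median ratios to the geometric means of the genes, library by library. edgeR 4.0.16 (quasi-likelihood, TMM) and DESeq2 1.42.0 on recovered reads, pseudocounts of 0.1 and 10, a filter at a mean of 10 or none, the other scaling, a replicate block at 2 weeks and leaving out single libraries were alternatives. The fits were tested on simulated data first.

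The members and the other gene lists were chosen with earlier results of these data known. The rule for named genes takes, per comparison, the 3 cytosolic and 3 mitochondrial members with the smallest p in full, and members that passed against the direction of their class; of every other list, up to 3 genes with the smallest p that passed; and Atf4, Ddit3 and Asns where listed. Every member may be named. A gene that the rule takes from another list is not reported here. The pair ratios were added after seeing the data. Sample titles at 2 weeks carry numbers shared by MR and Sham; the labels do not say that they pair animals.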

Additional observations from a re-analysis of the deposited data

Results flagged for a closer look

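Of 180 groups of 4 or 5 libraries, 13 held a library whose gap to the others was large for the range of its group, where chance alone gives about 9. Values are rescaled normalised counts. In MR at 40 weeks replicate 4 was high for Aars2 (19.4, others 11.5 to 12.6) and Lars2 (14.1, others 8.91 to 10.0), and replicate 2 was high for Fars2 (23.5, others 16.3 to 17.8). In MR at 20 weeks replicate 5 was high for Lars2 (9.04, others 6.39 to 6.73), and replicate 1 was low for Hars (19, others 21.6 to 22.5) and Tars2 (45.5, others 56.8 to 60.7). In MR at 10 weeks replicate 4 was low for Sars2 (4.21, others 8.26 to 8.92) and replicate 5 was low for Pars2 (1.84, others 3.33 to 3.64). In MR at 2 weeks replicate 1 was low for Sars (23.5, others 33.8 to 35.4) and high for Vars2 (24.7, others 14.1 to 15.1). In Sham replicate 5 was high for Aars (49.5, others 40.5 to 42.7) and low for Tars (16.5, others 18.7 to 19.4), and replicate 3 was low for Cars2 (7.55, others 10.3 to 11.4).

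For 13 genes the difference between MR at 40 and 20 weeks was itself past the threshold in limma, with log2 fold changes of 1.05 for Nars2, 0.93 for Aars2, 0.83 for Eprs, 0.80 for Dars, 0.71 for Iars, 0.52 for Lars2, 0.35 for Lars, 0.34 for Aars, 0.32 for Gars, 0.31 for Wars, -0.31 for Farsa, -0.57 for Aimp1 and -0.75 for Aimp2.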

How the results depend on the processing

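Counts are of enzymes past an adjusted p of 0.05. For MR at 40 weeks against Sham, DESeq2 gave 6 cytosolic enzymes higher, 1 lower and 5 mitochondrial higher, and edgeR and the median-ratio rescaling each gave 5, 1 and 5; a mean of at least 10 left 0 mitochondrial calls, because Aars2, Lars2 and Nars2 fall below it in mean value. Leaving out 1 library gave 1 to 3 cytosolic enzymes lower and 0 to 1 mitochondrial lower, the 1 call appearing without MR 40 weeks replicate 4 or Sham replicate 3. For 20 against 10 weeks DESeq2 gave 1 mitochondrial enzyme higher. For 40 against 20 weeks the values as deposited gave 2 cytosolic enzymes higher and 3 lower, and leaving out 1 library gave 2 to 5 mitochondrial higher, with 5 without MR 40 weeks replicate 3. For 40 against 2 weeks the values as deposited gave 3 cytosolic enzymes higher and 4 lower, a pseudocount of 10 gave 8 mitochondrial higher, and leaving out 1 library gave 4 to 8 cytosolic higher and 1 to 2 lower. Apart from the filter, the cause of these shifts was not tested. In all, 492 of 520 counts stayed within 1.5 times the value reported, and of 1099 values of single named genes 1048 kept their direction and side of the threshold, 50 lost a call, 1 gained one and 0 reversed. The 11 pair ratios moved by more than the spread between libraries in 5 of 132 values. At 2 weeks a replicate block on the title numbers gave 0 calls among the enzymes, as without it; same-numbered libraries correlated at -0.11, -0.20, -0.02 and 0.32, so the numbers were not taken to pair them. Depth limits the precision of low members such as Nars2, which had 2 to 159 reads a library.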
